A study of Danio rerio with 12 samples.

Results

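Genes for plasma proteins of the kind that liver secretes were followed in whole zebrafish larvae of 3 conditions. They are the apolipoproteins, the complement proteins, the clotting factors, the inhibitors of plasma proteases and a few carriers. Members were chosen by gene symbol alone, and the rule matched 83 of the 19983 genes in the table. Of these, 75 fell into the named protein groups: 14 apolipoproteins, 22 complement genes, 14 clotting factors, 16 inhibitors and 9 carriers and others. The other 8 members matched by their letters only (APOBEC2, C7H16orf87, C7H19orf12 and C7H4orf54 rows) and are not known as plasma proteins. C3AR1, a receptor on cells, was placed in complement in the same way.

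Exposed larvae were labelled Dx-IONP, for dextran-coated iron oxide nanoparticles, and another group IC, a label that is not spelled out. The protocol names an iron, a nanoparticle and a control condition, which leaves IC as the iron group. Control larvae were the third group. Larvae of all groups were at 120 hours after fertilization, and the line was Tg(fli:EGFP), a reporter whose vessels fluoresce. The dose and duration of exposure are not given in the sources used here. Each condition was 1 library of polyA RNA from 20 pooled larvae, sequenced on 4 lanes, so the 12 GEO samples are lanes and not replicates. No difference below has a replicate check, and no test between conditions was made.

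Liver is the main source of circulating plasma proteins. Apolipoproteins wrap and steer lipoprotein particles. Complement tags and lyses microbes, and the clotting factors form fibrin. Serpins and inter-alpha-trypsin inhibitors restrain the proteases of both systems. Not all of this RNA need come from liver in a larva. The yolk syncytial layer and the intestine also make apolipoproteins as they export yolk or dietary lipid, and macrophages and microglia express apoE.

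The libraries held 55381504 reads for Dx-IONP, 48283541 for IC and 84043873 for control. Levels are CPM, the reads of a gene relative to all reads of its library on a fixed scale, after scaling with TMM, a method that aligns the bulk of genes between libraries. The lanes of a library differed little for members at 10 CPM or more: the median coefficient of variation between lanes was 0.0265 for Dx-IONP, 0.0451 for IC and 0.0192 for control. A count of 0 reads allows up to 0.0632 CPM in Dx-IONP, 0.0590 CPM in IC and 0.0322 CPM in control. Of the 83 members, 72 reached 1 CPM in at least 1 library and were carried into counts of genes, among 16807 genes that did so. A gene is called higher or lower where 2 libraries differed by 2-fold or more and an exact 95% counting interval for the ratio left out 1. Ranges in parentheses after a log2 fold are these intervals, and they cover counting error only. The Dx-IONP library needed a TMM factor of 0.857, against 1.05 for IC and 1.11 for control, which left the median log2 fold of all genes at 0.03 for Dx-IONP over control. Scaled to total reads that median was -0.35, and calls among all genes split into 2304 higher and 5337 lower, against 3507 higher and 4071 lower with TMM.

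Plasma protein genes took up far less of the IC library than of both other libraries. The members together received 3.76% of all reads of the Dx-IONP library, 1.30% of IC and 5.13% of control. Lanes of each library repeated these shares closely, at 3.75% to 3.77% for Dx-IONP, 1.30% to 1.31% for IC and 5.12% to 5.14% for control. Most of those reads were apolipoprotein reads: 3.31% of the Dx-IONP library, 1.02% of IC and 4.31% of control. Carriers and others followed with 0.146% of Dx-IONP reads, 0.120% of IC reads and 0.347% of control reads. Complement had 0.138% of Dx-IONP reads, 0.0578% of IC reads and 0.208% of control reads. Inhibitors took 0.0804% of Dx-IONP reads, 0.0597% of IC reads and 0.183% of control reads. The clotting factors departed from this order, with a larger share in Dx-IONP (0.0826%) than in control (0.0727%), and the smallest in IC (0.0340%). These shares are of all reads, without TMM scaling. With TMM, the members summed to 43866.6 CPM in Dx-IONP, 12370.5 CPM in IC and 46339.7 CPM in control. Apolipoproteins alone summed to 38567 CPM in Dx-IONP, 9698 CPM in IC and 38933.5 CPM in control. On that scale Dx-IONP was close to control in both sums. In RNA from whole larvae, fewer liver cells and less RNA per cell cannot be told apart.

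**Figure D1:**
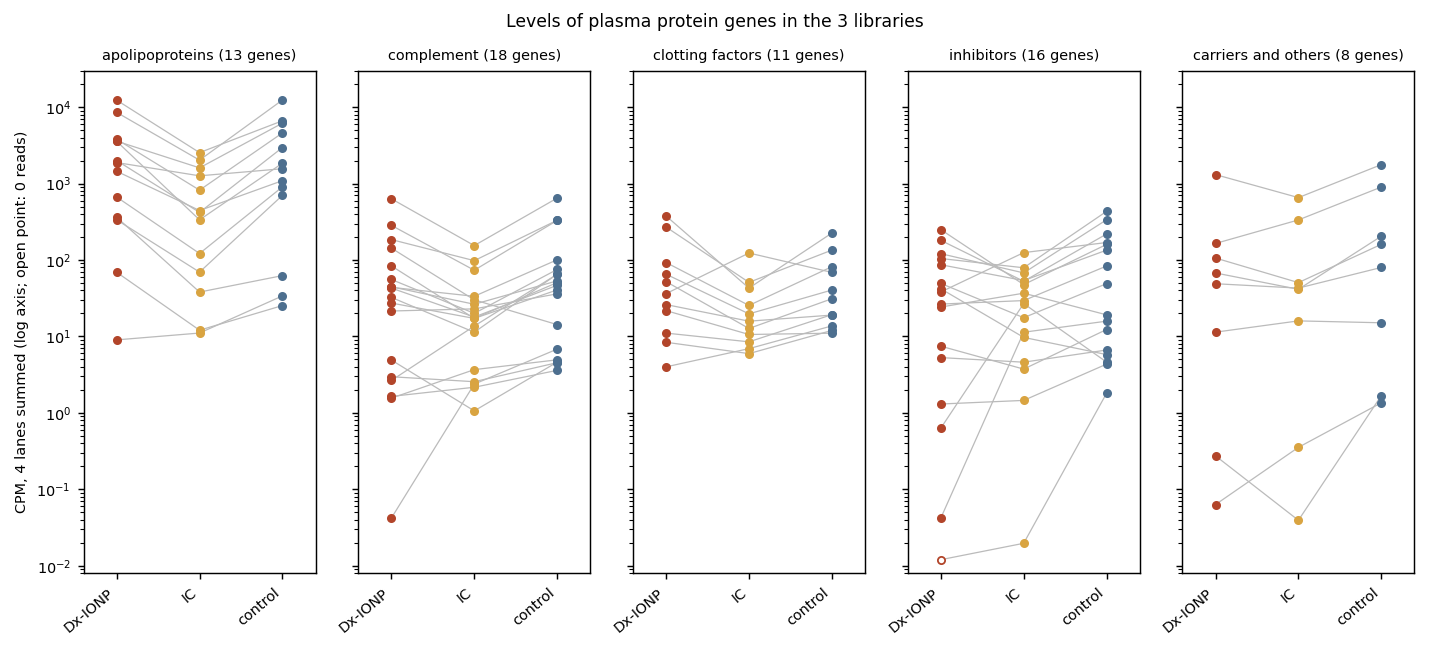
Level of each plasma protein gene that passed the filter, in CPM on a log axis, in the Dx-IONP, IC and control libraries (n = 1 library each), 1 panel per protein group; grey lines join the same gene and the open point marks 0 reads (serpina7). Nearly all apolipoproteins dip in IC, while the inhibitor panel holds genes that drop out in Dx-IONP.

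In the IC library, plasma protein genes were lower across every group. Of the 72 members that passed the filter, 48 were called lower than in control and 4 higher, where 15.1% of all genes were called lower and 14.2% higher (29.2% in either direction). Their median log2 fold was -1.42, which is 2.67-fold lower, against -0.0011 over all genes. In all, 61 of the 72 lay below 0. Apolipoproteins had the lowest median, at -1.94, followed by carriers at -1.55, complement at -1.53, inhibitors at -1.49 and clotting factors at -1.04. The members with the most reads were lower most often. Of 25 members averaging 100 CPM or more, 22 were called lower in IC and 0 higher (median -2.05). Of 30 averaging 10 to 100 CPM, 18 were lower and 2 higher (median -1.12). Of 17 averaging under 10 CPM, 8 were lower and 2 higher (median -0.98). These last 2 were C7H4orf54 and a C7H19orf12 row, which matched by letters only. Among the 8 lower, serpina7, TTR and ahsg1 passed the filter through control alone, which fixed the direction of their folds over control. Shares of all genes at these levels were not computed.

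The Dx-IONP library differed from control in a more mixed way. There, 21 of the 72 members were called lower and 5 higher, where 24.2% of all genes were called lower and 20.9% higher (45.1% in either direction). The share of members called lower, 29.2%, was thus near that of all genes, and the share called higher, 6.94%, was below it. The median log2 fold was -0.48. The groups were unlike each other: the median was 0.46 for clotting factors, -0.27 for apolipoproteins, -0.59 for complement, -1.10 for inhibitors and -1.15 for carriers. With reads scaled to library totals, 30 members were lower and 4 higher, and the median was -0.85.

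Set directly against IC, the Dx-IONP library was higher for 33 of the 72 members and lower for 11, where 24.0% of all genes were higher and 26.5% lower (50.5% in either direction). The median log2 fold was 0.80. Apolipoproteins led with a median of 2.25 and 11 of 13 members called higher. Clotting factors stood at 1.03, complement at 0.84, carriers at 0.45 and inhibitors at 0.30. Scaled to total reads, 28 members were higher and 13 lower, while calls among all genes were 2925 higher and 5411 lower, against 4040 higher and 4451 lower with TMM.

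The IC library held the lowest level of the 3 for 47 of the 72 members, Dx-IONP for 18 and control for 7. Over all genes these shares were 32.3% for IC, 38.1% for Dx-IONP and 29.6% for control. The commonest order, control above Dx-IONP above IC, was found for 29 members, and for 11.02% of all genes. The folds of Dx-IONP and IC use the same control library, so no overlap of their calls is given. By their own values, apoa4a and f2 were higher in Dx-IONP and lower in IC, and itih3a.2 was lower in Dx-IONP and higher in IC. The gene c7a was called higher in each.

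**Figure D2:**
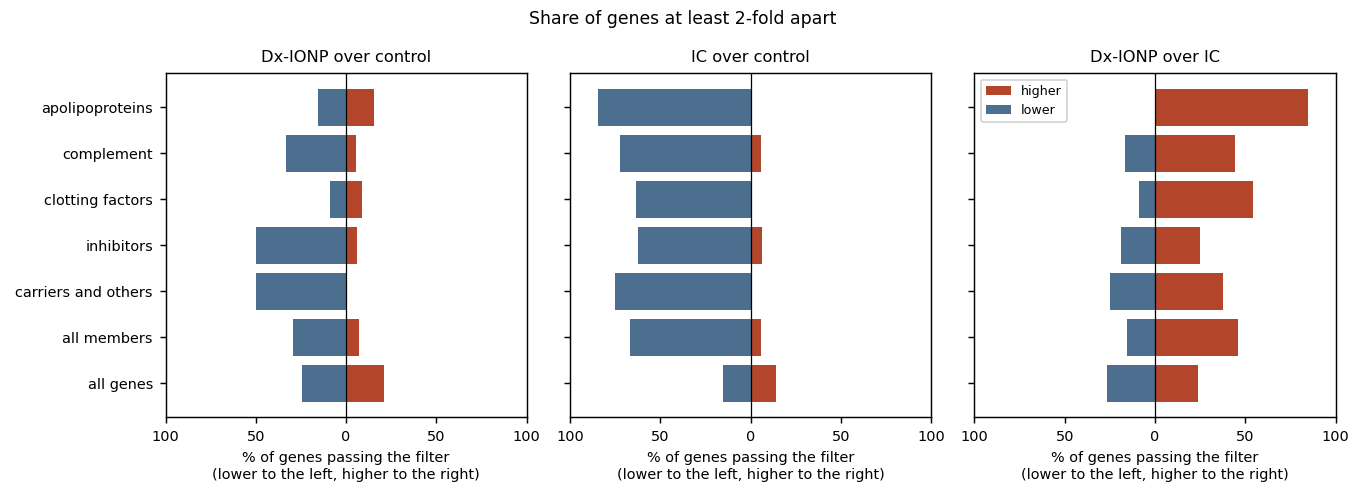
Share of genes called at least 2-fold higher (red, to the right) or lower (blue, to the left), in percent of genes passing the filter, for each protein group, all members and all genes, in the 3 comparisons. In IC over control the bars of all 5 protein groups reach far to the left of the 15.1% for all genes, whereas in Dx-IONP over control inhibitors and carriers reach furthest.

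Among the apolipoproteins, 13 of 14 genes passed the filter, and in IC all 13 lay below control, 11 of them called. The share of all genes called lower in IC was 15.1%. Of the genes for proteins of high-density lipoprotein, apoa2 had 8528 CPM in Dx-IONP, 2024 CPM in IC and 12372 CPM in control. Its lanes ran from 8501 to 8551 CPM in Dx-IONP, 2009 to 2043 CPM in IC and 12349 to 12389 CPM in control, so the 3 libraries did not overlap. Both copies of the main protein of these particles were low in IC and within 2-fold of control in Dx-IONP. At 3795 CPM in Dx-IONP, 820 CPM in IC and 4589 CPM in control, apoa1a had log2 folds of -0.27 in Dx-IONP and -2.48 in IC. Its copy apoa1b had 3586 CPM in Dx-IONP, 1604 CPM in IC and 6166 CPM in control, with log2 folds of -0.78 and -1.94 in the same order.

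The apoB genes encode the structural protein of chylomicrons and of very low and low density lipoproteins. In Dx-IONP all 3 copies had log2 folds above 0, and in IC all 3 had folds below it. With 12322 CPM in Dx-IONP, 2538 CPM in IC and 6623 CPM in control, apobb.1 had log2 folds of 0.90 (0.89 to 0.90) in Dx-IONP and -1.38 (-1.39 to -1.38) in IC. It made up 28.1% of the member reads of Dx-IONP, 20.5% of those of IC and 14.3% of those of control. For apoa2 the share was 19.4% of Dx-IONP, 16.4% of IC and 26.7% of control, so the leading gene by reads was apobb.1 in Dx-IONP and in IC and apoa2 in control. APOB had 1447 CPM in Dx-IONP, 444 CPM in IC and 1091 CPM in control, with log2 folds of 0.41 and -1.30. The third copy, apobb.2, had 362 CPM in Dx-IONP, 38.0 CPM in IC and 62.5 CPM in control, a log2 fold of 2.53 (2.49 to 2.58) in Dx-IONP, which was called, and of -0.72 (-0.79 to -0.64) in IC, which was not.

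Both apoE genes, which encode a ligand of the LDL receptor family, were far lower in IC, and they parted in Dx-IONP. The copy apoeb had 3566 CPM in Dx-IONP, 335 CPM in IC and 1846 CPM in control. Its log2 fold was 0.95 (0.94 to 0.96) in Dx-IONP, just short of 2-fold, and -2.46 (-2.49 to -2.44) in IC. The other, apoea, had 666 CPM in Dx-IONP, 122 CPM in IC and 904 CPM in control, with log2 folds of -0.44 and -2.90 in that order. Between Dx-IONP and IC, apoeb had the highest fold of any member, at 3.41 (3.39 to 3.44).

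The small apoC genes were far lower in IC, apoc2 with the lowest fold of all apolipoproteins. The cofactor of lipoprotein lipase, apoc2, had 335 CPM in Dx-IONP, 69.4 CPM in IC and 701 CPM in control, which gave log2 folds of -1.06 (-1.09 to -1.04) in Dx-IONP and -3.33 (-3.38 to -3.29) in IC. It was called lower in both. In mammals apoC-I slows the uptake of lipoprotein particles, and apoc1 had 1999 CPM in Dx-IONP, 419 CPM in IC and 2959 CPM in control, or -0.57 and -2.82 on the log2 scale. In IC, the apoB copies at -1.30, -1.38 and -0.72 thus stood above apoa2, apoc1 and apoc2 at -2.61, -2.82 and -3.33. The apoB transcripts are long and those of apoa2, apoc1 and apoc2 short. Transcript length was not measured here, and its part in this difference was not tested. The apoA-IV genes stood in IC at -0.31 (apoa4b.1), -1.07 (apoa4a) and -1.61 (apoa4b.3). Expression of apoc4 was at or under 8 reads in each library.

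The apoA-IV genes, which are linked to intestinal lipid export, did not share 1 pattern. The copy with the most reads, apoa4b.1, had 1883 CPM in Dx-IONP, 1262 CPM in IC and 1562 CPM in control, and with folds of 0.27 and -0.31 it was the apolipoprotein nearest to control in both libraries. Scaled to total reads its Dx-IONP fold turned to -0.10. With fewer reads, apoa4a had 69.1 CPM in Dx-IONP, 12.1 CPM in IC and 25.3 CPM in control, a log2 fold of 1.45 (1.37 to 1.52) in Dx-IONP and -1.07 (-1.20 to -0.94) in IC. The third, apoa4b.3, was called lower in both, with 9.01 CPM in Dx-IONP, 11.1 CPM in IC and 33.9 CPM in control.

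**Figure D3:**
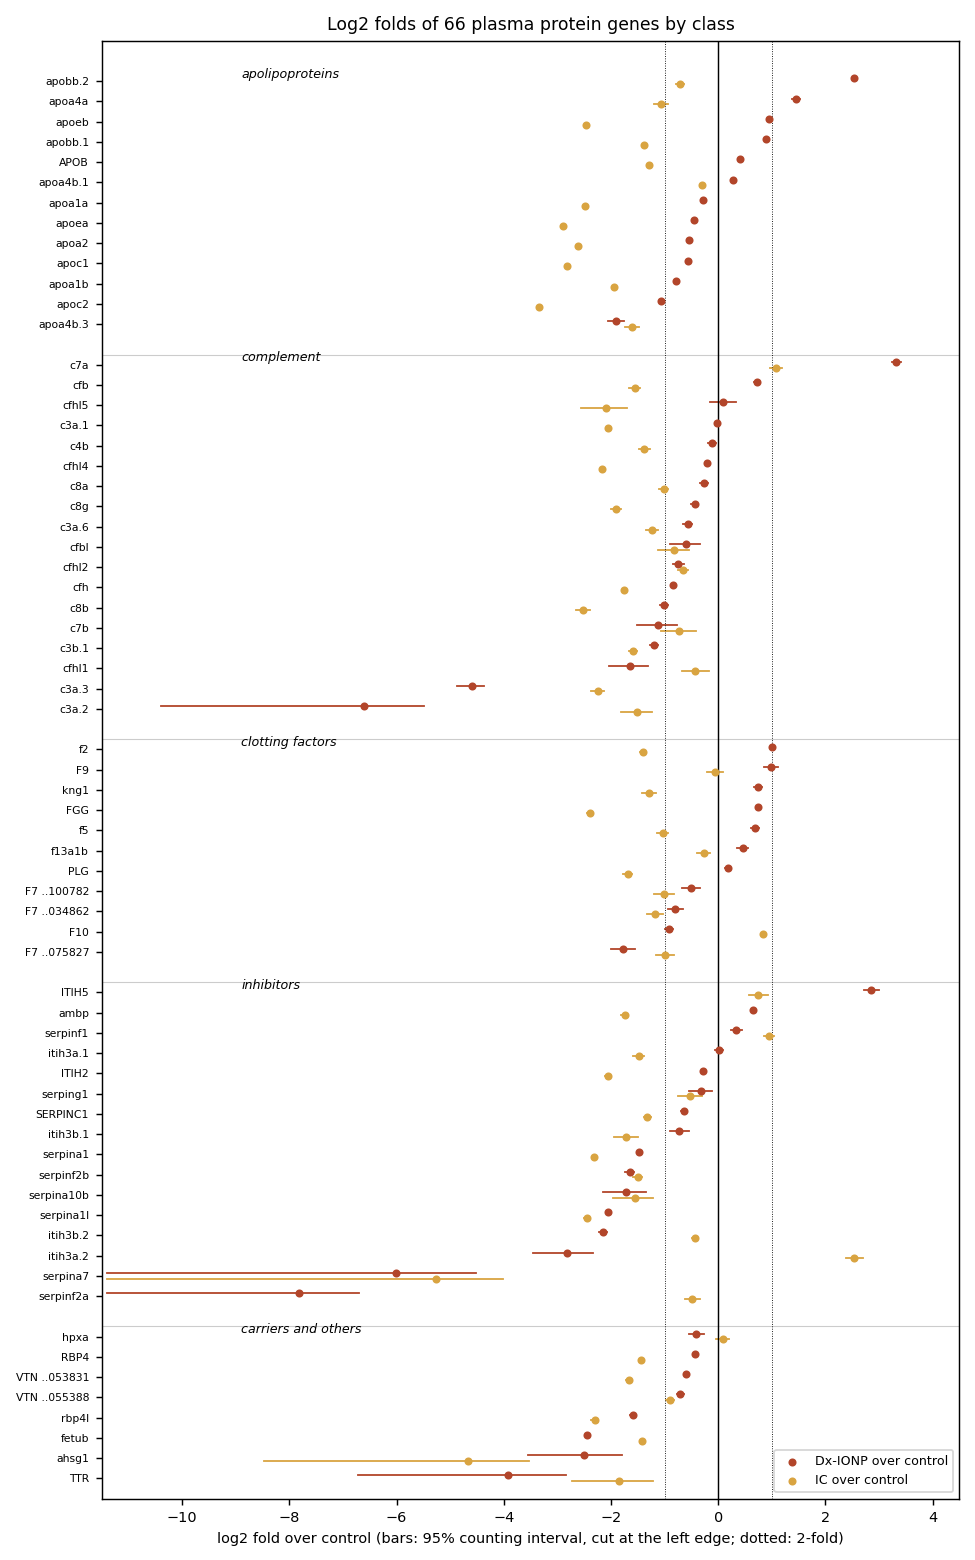
Log2 fold over control of the 66 plasma protein genes that passed the filter, grouped by class and ordered by the Dx-IONP fold; red is Dx-IONP, yellow is IC, bars are 95% counting intervals (cut at the left edge) and dotted lines mark 2-fold. The Dx-IONP point of serpina7 is fitted from 0 reads and is not a bound. In apolipoproteins and clotting factors the IC points lie to the left of the Dx-IONP points for most genes, and in inhibitors the Dx-IONP points spread from -7.81 to 2.85.

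Complement counted 22 genes, of which 18 passed the filter. In IC 13 were called lower and 1 higher, and in Dx-IONP 6 lower and 1 higher. All genes had 15.1% lower and 14.2% higher in IC, and 24.2% lower and 20.9% higher in Dx-IONP. The central component C3, on whose cleavage the arms of the cascade converge, is encoded by several neighbouring copies. The copy with the most reads, c3a.1, stood level with control in Dx-IONP, at 632 CPM against 645 CPM in control, a log2 fold of -0.03 (-0.05 to -0.01). In IC it had 154 CPM, a log2 fold of -2.06 (-2.10 to -2.03). Other copies in the block did not follow it in Dx-IONP: c3a.3 had 2.65 CPM in Dx-IONP, 13.7 CPM in IC and 65.0 CPM in control, and c3a.2 had 2 reads in Dx-IONP (0.0421 CPM), with 2.38 CPM in IC and 6.82 CPM in control. With c3a.6 at 27.3 CPM in Dx-IONP, 17.2 CPM in IC and 40.6 CPM in control, c3a.1 supplied 95.4% of the family's reads from Dx-IONP, 82.2% from IC and 85.1% from control. On another block, c3b.1 was lower in both libraries, with 43.8 CPM in Dx-IONP, 33.5 CPM in IC and 101 CPM in control.

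The terminal components, which build the membrane attack pore, held the sharpest exception. With 143 CPM in Dx-IONP, 30.1 CPM in IC and 14.3 CPM in control, c7a was the member with the highest fold over control in Dx-IONP, at 3.32 (3.24 to 3.41). It was also called higher in IC, at 1.07 (0.97 to 1.18). Its lanes ran from 140 to 146 CPM in Dx-IONP, 28.5 to 32.0 CPM in IC and 13.1 to 15.6 CPM in control, with no overlap. The copy c7b had few reads and lay below control, with 1.64 CPM in Dx-IONP, 2.16 CPM in IC and 3.60 CPM in control. Of the 3 chains of C8, which inserts next to C7, c8a had 44.6 CPM in Dx-IONP, 26.4 CPM in IC and 53.3 CPM in control, and c8g had 55.6 CPM in Dx-IONP, 20.0 CPM in IC and 75.2 CPM in control. The chain c8b had 32.4 CPM in Dx-IONP, 11.3 CPM in IC and 65.2 CPM in control. Its Dx-IONP fold of -1.01 was called, but the lanes were uneven, from 24.0 to 35.8 CPM, and without lane 4 it was -0.90. The call for c8a in IC, at -1.02, was likewise lost without lane 4, at -0.99.

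In the alternative pathway, the protease factor B and its inhibitor factor H stood apart in Dx-IONP and were both lower in IC. Factor B (cfb) had 83.6 CPM in Dx-IONP, 17.2 CPM in IC and 50.7 CPM in control, with a log2 fold of 0.72 (0.66 to 0.78) in Dx-IONP and -1.56 (-1.67 to -1.46) in IC. Factor H (cfh) had 184.8 CPM in Dx-IONP, 98.0 CPM in IC and 331 CPM in control, with log2 folds of -0.84 (-0.87 to -0.81) in Dx-IONP and -1.75 (-1.80 to -1.71) in IC. Neither was called in Dx-IONP, though cfh was with scaling to total reads, at -1.21. Of the factor H-like copies beside it, cfhl4 had 284 CPM in Dx-IONP, 73.4 CPM in IC and 329 CPM in control, and cfhl5 had 4.91 CPM, 1.06 CPM and 4.61 CPM in the same libraries. Both were called lower in IC alone. Another copy, cfhl2, was the complement gene of at least 10 CPM with the least difference between Dx-IONP and IC, at 21.5 CPM in Dx-IONP and 22.9 CPM in IC, with 36.1 CPM in control. With few reads, cfhl1 had 1.56 CPM in Dx-IONP, 3.68 CPM in IC and 4.94 CPM in control, and it was called lower in Dx-IONP alone. C4 (c4b), which the classical and lectin pathways share, had 42.9 CPM in Dx-IONP, 17.9 CPM in IC and 46.7 CPM in control. The row cfbl had 2.97 CPM in Dx-IONP, 2.56 CPM in IC and 4.53 CPM in control.

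The earlier steps and other regulators and receptors of complement were read from a list of their own. Of its 18 names 10 were found, 9 of them outside the rule and C3AR1 a member. The 5 that passed the filter were all outside the rule. In Dx-IONP 0 were higher and 2 lower (c1qc and mbl2), and in IC 0 were higher and 2 lower (mbl2 and cfd). Among all genes 20.9% were higher and 24.2% lower in Dx-IONP, and 14.2% higher and 15.1% lower in IC. Both c1qc and mbl2 passed the filter through control alone, which fixed the direction of their folds over control. Mannose-binding lectin, mbl2, which liver makes, had 0.168 CPM in Dx-IONP, 0.806 CPM in IC and 2.64 CPM in control. Factor D (cfd), the protease that activates factor B, had 45.7 CPM in Dx-IONP, 24.6 CPM in IC and 61.0 CPM in control.

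Of the 14 clotting factor rows 11 passed the filter, and they had the highest median of any group in Dx-IONP over control. In Dx-IONP, 1 was called higher and 1 lower, and in IC 0 higher and 7 lower. Each Dx-IONP count was 9.09% of the 11, below the 20.9% higher and 24.2% lower of all genes. For IC the shares of all genes were 14.2% higher and 15.1% lower. The gamma chain of fibrinogen (FGG), the precursor of fibrin, had 376 CPM in Dx-IONP, 42.9 CPM in IC and 225 CPM in control. Its log2 fold was 0.74 (0.71 to 0.77) in Dx-IONP and -2.39 (-2.46 to -2.33) in IC, the lowest of the clotting factors there. Prothrombin (f2), the precursor of thrombin, had 269.5 CPM in Dx-IONP, 51.0 CPM in IC and 135 CPM in control. The Dx-IONP fold of 1.001 (0.97 to 1.04) sat on the threshold, at 0.96 without lane 2 and at 0.63 with scaling to total reads. In IC it was -1.40 (-1.46 to -1.34).

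Other factors with the same order of libraries were the cofactor f5, with 65.1 CPM in Dx-IONP, 19.7 CPM in IC and 40.5 CPM in control, and kininogen (kng1), with 52.1 CPM in Dx-IONP, 12.7 CPM in IC and 31.1 CPM in control. Plasminogen (PLG), the precursor of the enzyme that dissolves fibrin, had 92.6 CPM in Dx-IONP, 25.4 CPM in IC and 81.7 CPM in control. Its Dx-IONP lanes, at 81.2 to 116 CPM, overlapped those of control, and the Dx-IONP fold of 0.18 was 0.049 without lane 1 and -0.19 with scaling to total reads. F9 had 21.8 CPM in Dx-IONP, 10.6 CPM in IC and 11.02 CPM in control, so it was level with control in IC, at -0.06 (-0.21 to 0.10). In Dx-IONP its fold was 0.98 (0.85 to 1.11), and 1.01 without lane 1. The transglutaminase gene f13a1b, whose product cross-links fibrin, had 26.1 CPM in Dx-IONP, 15.8 CPM in IC and 19.0 CPM in control.

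F10 and F7, proteases upstream of thrombin, did not share this order. F10 had 36.3 CPM in Dx-IONP, 123 CPM in IC and 68.8 CPM in control, with log2 folds of -0.92 in Dx-IONP and 0.84 (0.79 to 0.89) in IC, both short of 2-fold, though the Dx-IONP fold was -1.29 and called with scaling to total reads. It was the single clotting factor with its highest level in IC, and the one called lower in Dx-IONP than in IC, at -1.76 (-1.84 to -1.69). The 3 rows named F7 were highest in control: 1 of them (ENSDARG00000075827) had 4.001 CPM in Dx-IONP, 6.92 CPM in IC and 13.7 CPM in control. That row had uneven lanes in IC, from 3.52 to 9.08 CPM, and its IC fold of -0.98 became -1.14 without lane 3. The row ENSDARG00000034862 had 11.1 CPM in Dx-IONP, 8.50 CPM in IC and 19.3 CPM in control. The row ENSDARG00000100782 had 8.38 CPM in Dx-IONP, 5.96 CPM in IC and 11.97 CPM in control, and its call in IC, at -1.003, was lost without lane 3, at -0.92. The gene f9a had 0 reads in every lane, and 2 rows named F13A1 had at most 2 reads.

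Clotting genes outside the rule, many of them made by vessel walls, did not share the low levels of the IC library. Of 13 that passed the filter, 4 were called higher and 0 lower in Dx-IONP (median 0.12), and 3 higher and 0 lower in IC (median 0.46). The gene vwf, called higher in IC, passed the filter through IC alone, which fixed the direction of that fold. The gene f8, called higher in both, passed through Dx-IONP and IC but not control, which fixed the direction of both its folds over control. The shares of all genes were 20.9% higher and 24.2% lower in Dx-IONP, and 14.2% higher and 15.1% lower in IC. The plasminogen activator PLAT, for example, had 6.002 CPM in Dx-IONP, 5.13 CPM in IC and 2.49 CPM in control. Protein C (PROC), a liver anticoagulant, had 4.02 CPM in Dx-IONP, 3.28 CPM in IC and 6.40 CPM in control.

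All 16 inhibitor genes passed the filter. In Dx-IONP 8 were called lower and 1 higher, and in IC 10 lower and 1 higher. Across all genes 24.2% were lower and 20.9% higher in Dx-IONP, and 15.1% lower and 14.2% higher in IC. The antitrypsin genes, whose product restrains neutrophil elastase in mammals, were low in both. With 105 CPM in Dx-IONP, 79.1 CPM in IC and 432 CPM in control, serpina1l had log2 folds of -2.05 (-2.09 to -2.01) in Dx-IONP and -2.45 (-2.50 to -2.40) in IC. Its neighbour serpina1 had 121 CPM in Dx-IONP, 67.8 CPM in IC and 336 CPM in control, with log2 folds of -1.47 in Dx-IONP and -2.31 in IC. Both were thus called in Dx-IONP and in IC, while c3a.1, apoa1a and FGG were called in IC alone. Antithrombin (SERPINC1), the main inhibitor of thrombin, had 86.7 CPM in Dx-IONP, 53.8 CPM in IC and 134 CPM in control, and was called in IC, at -1.32 (-1.38 to -1.26). In Dx-IONP it was at -0.63, and at -1.002 and called with scaling to total reads.

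The widest gap of any member was in an antiplasmin gene, whose product blocks plasmin. The copy serpinf2a had 2 reads in Dx-IONP (0.0421 CPM), 11.3 CPM in IC and 15.8 CPM in control. The log2 fold was -7.81 (-11.60 to -6.70) in Dx-IONP and -0.48 (-0.62 to -0.34) in IC. Its copy serpinf2b was lower in both, with 26.5 CPM in Dx-IONP, 29.4 CPM in IC and 83.4 CPM in control. The gene next to serpinf2a, serpinf1, does not inhibit proteases as far as is known in mammals. It was among the few members highest in IC, with 24.2 CPM in Dx-IONP, 36.8 CPM in IC and 19.2 CPM in control.

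Some genes of the inhibitor group had few reads. Among them, serpina7 is named for binding thyroxine and was placed in the group by its symbol. The thyroxine-binding globulin gene serpina7 had 0 reads in Dx-IONP and 1 in IC, against 1.80 CPM in control, so it was at least 28.6-fold lower in Dx-IONP with a floor of 3 reads per library. For IC the log2 fold was -5.27 (-11.83 to -4.02). Since serpina7 reached 1 CPM in control alone, passing the filter already fixed the direction of its folds over control. The inhibitor serpina10b had 1.31 CPM in Dx-IONP, 1.46 CPM in IC and 4.34 CPM in control. The C1 inhibitor gene serping1 was called in neither library, with 5.29 CPM in Dx-IONP, 4.60 CPM in IC and 6.64 CPM in control.

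Inter-alpha-trypsin inhibitors join a light chain, bikunin, to heavy chains that bind hyaluronan. The gene of the light chain, ambp, had 249.5 CPM in Dx-IONP, 47.6 CPM in IC and 159.8 CPM in control. The heavy chain gene ITIH2 had 181 CPM in Dx-IONP, 52.6 CPM in IC and 219 CPM in control. Next to it in the genome, ITIH5 behaved otherwise, with 42.0 CPM in Dx-IONP, 9.72 CPM in IC and 5.79 CPM in control, a log2 fold of 2.85 (2.72 to 2.999) in Dx-IONP and 0.74 (0.57 to 0.93) in IC. In mammals ITIH5 is made by many tissues besides liver. With c7a and apobb.2 it was the member furthest above control in Dx-IONP.

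Among the ITIH3 copies, the split of reads between neighbours differed by library. The copy itih3a.1 had 49.4 CPM in Dx-IONP, 17.6 CPM in IC and 49.0 CPM in control, and itih3a.2 had 0.632 CPM in Dx-IONP, 26.9 CPM in IC and 4.62 CPM in control. Summed, the pair had 49.996 CPM in Dx-IONP, 44.5 CPM in IC and 53.6 CPM in control, with log2 folds of -0.10 (-0.17 to -0.03) and -0.27 (-0.34 to -0.20). The copy itih3a.2 gave 1.26% of the pair's reads from Dx-IONP, 60.5% from IC and 8.62% from control. Estimated counts of similar copies can be split unevenly by the quantifier. How alike these copies are was not measured, so the call of itih3a.2 is uncertain and the pair's sum is given beside it. For the other pair, itih3b.2 had 38.2 CPM in Dx-IONP, 125 CPM in IC and 169 CPM in control, and itih3b.1 had 7.46 CPM in Dx-IONP, 3.74 CPM in IC and 12.3 CPM in control.

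**Figure D4:**
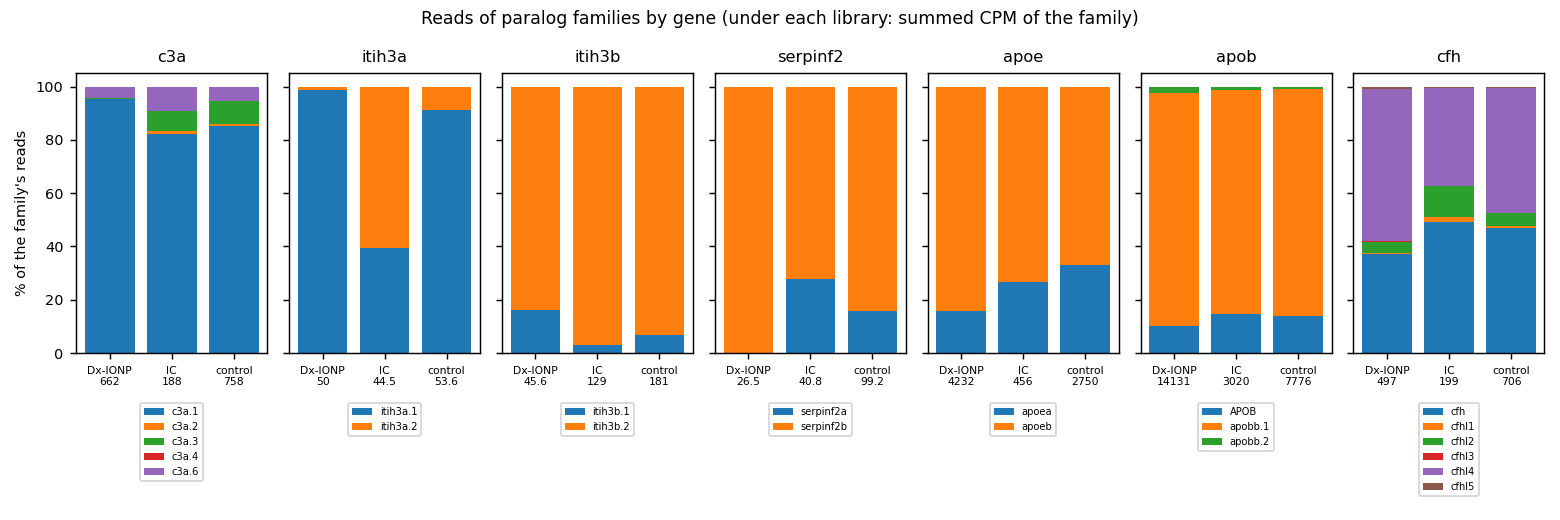
Share of each family's reads, in percent, held by each copy in the Dx-IONP, IC and control libraries for 7 families, with the family's summed CPM under each bar. In itih3a the copy itih3a.2 holds 60.5% in IC, while in c3a and apob 1 copy holds 82.2% or more of the reads in all 3 libraries.

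In the other families of copies likeness was not measured either, and their sums were as follows. The c3a copies together had 662 CPM in Dx-IONP, 188 CPM in IC and 758 CPM in control. The apoB copies had 14131 CPM in Dx-IONP, 3020 CPM in IC and 7776 CPM in control. The apoE pair had 4232 CPM in Dx-IONP, 456 CPM in IC and 2750 CPM in control. In these 3 families IC was the lowest library, as it was for their main copies. Factor H and its like genes had 497 CPM in Dx-IONP, 199 CPM in IC and 706 CPM in control. The antiplasmin pair had 26.5 CPM in Dx-IONP, 40.8 CPM in IC and 99.2 CPM in control, so here Dx-IONP was the lowest library. For c7a and c7b the sums were 145 CPM in Dx-IONP, 32.3 CPM in IC and 17.9 CPM in control, a log2 fold of 3.01 (2.94 to 3.09) in Dx-IONP. In IC that pair's fold was 0.85 (0.75 to 0.95), so the sum stayed under the 2-fold criterion that c7a passed alone.

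The carriers were the group in which the Dx-IONP library lay below control for every one of the 8 members that passed the filter, 4 of them called. The share of all genes called lower in Dx-IONP was 24.2%. Fetuin-B (fetub), which inhibits proteases at fertilization in mammals, had 165 CPM in Dx-IONP, 334 CPM in IC and 899.5 CPM in control, with log2 folds of -2.45 (-2.48 to -2.42) in Dx-IONP and -1.43 (-1.45 to -1.41) in IC. It was lower in Dx-IONP than in IC, at -1.02 (-1.06 to -0.98). The retinol carrier RBP4 had 1309 CPM in Dx-IONP, 654.5 CPM in IC and 1767 CPM in control, and was called in IC alone. Its relative rbp4l was lower in both, with 67.6 CPM in Dx-IONP, 41.3 CPM in IC and 204 CPM in control. TTR, a carrier of thyroid hormone, was near the floor, with 3 reads (0.0632 CPM) in Dx-IONP, 0.354 CPM in IC and 1.35 CPM in control. TTR and ahsg1 passed the filter through control alone, which fixed the direction of their folds over control. Vitronectin, which binds cells to matrix and holds back the complement pore, was read from 2 rows named VTN. The first (ENSDARG00000053831) had 106 CPM in Dx-IONP, 50.6 CPM in IC and 160.3 CPM in control, and the second (ENSDARG00000055388) had 48.9 CPM in Dx-IONP, 42.9 CPM in IC and 79.8 CPM in control.

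The haem-binding protein hemopexin was the carrier nearest to control. Its gene hpxa had 11.4 CPM in Dx-IONP, 15.97 CPM in IC and 15.1 CPM in control, with log2 folds of -0.41 (-0.55 to -0.26) and 0.08 (-0.04 to 0.21). The fetuin gene ahsg1 had 0.274 CPM in Dx-IONP, 2 reads (0.0393 CPM) in IC and 1.68 CPM in control. For 14 symbols that the rule would match, among them the transferrin gene tfa and the fibrinogen genes fga and FGB, values were not analysed here.

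Many members are neighbours in the genome. By the RefSeq gene order of GRCz12tu, taken for order only, 37 of the 65 members that could be placed lay within 5 genes of another member, in 13 blocks. Neighbours in the largest block, apoa4b.1, apoa4b.3, apoeb, apoc1, apoc4, apoa2 and apoc2, had unlike folds. In IC over control the folds of its 6 genes that passed the filter ran from -3.33 for apoc2 to -0.31 for apoa4b.1, and in Dx-IONP over control from -1.91 for apoa4b.3 to 0.95 for apoeb. Adjacent genes parted in other blocks too, as ITIH2 and ITIH5, serpinf2a and serpinf1, and apoa4a and apoea show above. The pair serpina1l and serpina1 was low in both libraries.

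Of the genes that assemble, remodel or take up lipoproteins, those that passed the filter were not low in the IC library with the apolipoproteins. The list had 23 names, of which 19 were found, and mttp was not among these. LIPC stayed under the filter, with 0 CPM in Dx-IONP, 0.0983 CPM in IC and 0.978 CPM in control. Its log2 fold in IC was -2.995 (-4.97 to -2.04). Of 19 that passed the filter, 1 was called higher and 0 lower in IC (median -0.05), and 3 higher and 7 lower in Dx-IONP (median -0.34). For all genes the shares were 14.2% higher and 15.1% lower in IC, and 20.9% higher and 24.2% lower in Dx-IONP. The one called higher in IC was the LDL receptor gene ldlra, with 8.97 CPM in Dx-IONP, 50.2 CPM in IC and 21.4 CPM in control, and it was called lower in Dx-IONP, at -1.25. The receptor gene LRP1 (ENSDARG00000029146) had 278 CPM in Dx-IONP, 38.3 CPM in IC and 60.03 CPM in control. Another LRP1 row (ENSDARG00000097827) went the other way, with 38.2 CPM in Dx-IONP, 49.3 CPM in IC and 77.6 CPM in control. That row was called lower in Dx-IONP, at -1.02. Lecithin-cholesterol acyltransferase (LCAT), which apoA-I activates, had 37.5 CPM in Dx-IONP, 10.4 CPM in IC and 12.3 CPM in control.

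Transcription factors that drive plasma protein genes in liver also differed between Dx-IONP and IC. Of 17 that passed the filter, 1 was higher and 1 lower in IC (median 0.11), and 4 were higher and 8 lower in Dx-IONP (median -0.90). All genes had 14.2% higher and 15.1% lower in IC, and 20.9% higher and 24.2% lower in Dx-IONP. Set against IC, Dx-IONP was higher for 3 of the 17 and lower for 9, where 24.0% of all genes were higher and 26.5% lower. CEBPA had 77.9 CPM in Dx-IONP, 207 CPM in IC and 196 CPM in control. FOXA2 had 2.57 CPM in Dx-IONP, 12.8 CPM in IC and 14.8 CPM in control, and the bile acid receptor gene NR1H4 had 0.211 CPM in Dx-IONP, 3.99 CPM in IC and 7.82 CPM in control. CEBPB, a factor of the acute-phase response, was higher in Dx-IONP, with 40.4 CPM, against 8.91 CPM in IC and 17.6 CPM in control. The row HNF4A was listed at 0 in all 3 libraries. The part of these factors in the plasma protein values was not tested.

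The hepatocyte markers that are no members split from the plasma proteins in Dx-IONP. Of 10 such markers 7 were called lower and 0 higher in Dx-IONP (median -3.56), and 6 lower and 0 higher in IC (median -1.39). Across all genes 24.2% were lower and 20.9% higher in Dx-IONP, and 15.1% lower and 14.2% higher in IC. The liver fatty acid binding protein fabp10a had 0.590 CPM in Dx-IONP, 65.8 CPM in IC and 160 CPM in control. The vitamin D carrier GC had 0.0421 CPM in Dx-IONP, 6.69 CPM in IC and 13.1 CPM in control, and the enzyme TDO2 had 0.0842 CPM in Dx-IONP, 12.4 CPM in IC and 34.8 CPM in control. None of the 10 was at 0 in any library. The low markers moved with the low inhibitors and carriers in Dx-IONP, and their part in those values was not tested.

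**Figure D5:**
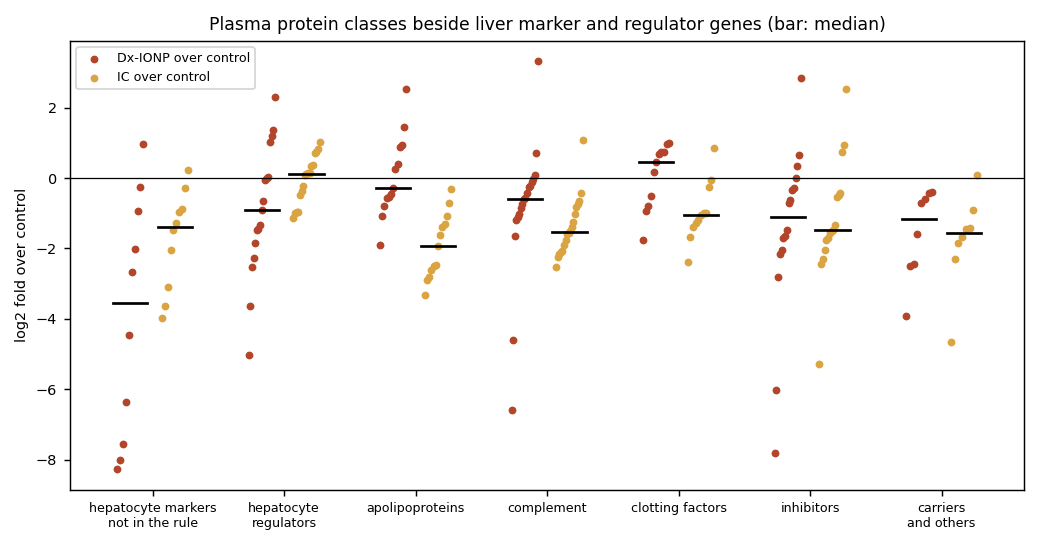
Log2 fold over control of each hepatocyte marker that is no member, each hepatocyte regulator and each member of the 5 protein groups, for Dx-IONP (red) and IC (yellow), with medians as black bars. In Dx-IONP the markers have a median of -3.56 and the apolipoproteins one of -0.27, while in IC the regulators have a median of 0.11 and the apolipoproteins one of -1.94.

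Markers of other tissues and cells were read in the same libraries. The counts below stand beside 24.2% of all genes lower and 20.9% higher in Dx-IONP, and 15.1% lower and 14.2% higher in IC. The markers of the yolk syncytial layer and intestine include the members apobb.1 and apoa4b.1. Outside these, 3 of 6 were called lower and 0 higher in Dx-IONP, and 4 lower and 0 higher in IC. The 6 include the 2 RBP2 rows of the hepatocyte list, called lower in both libraries, so the 2 lists share these calls. The sum of the list without the 2 members, RBP2 rows included, was 439 CPM in Dx-IONP, 292 CPM in IC and 790 CPM in control. The fatty acid binding protein row FABP1 (ENSDARG00000059227) had 252 CPM in Dx-IONP, 11.96 CPM in IC and 201 CPM in control. The microvillus gene VIL1 had 2.04 CPM in Dx-IONP, 193 CPM in IC and 130 CPM in control, and the list's rows HNF4A and a second FABP1 row were at or next to 0 throughout. Macrophage and microglia markers without apoeb summed to 135 CPM in Dx-IONP, 65.5 CPM in IC and 70.9 CPM in control. Of 13 that passed the filter, 5 were higher and 2 lower in Dx-IONP and 2 higher and 6 lower in IC. The filter was passed by P2RY12 through IC alone, by c1qc through control alone and by the MFAP4 row ENSDARG00000038683 through Dx-IONP alone. This fixed the direction of 3 calls: P2RY12 higher in IC, c1qc lower in Dx-IONP and that MFAP4 row higher in Dx-IONP. The receptor gene csf1ra, called higher in both, had 44.5 CPM in Dx-IONP, 28.4 CPM in IC and 13.8 CPM in control. Its paralog csf1rb was called in neither library. The 2 lower in Dx-IONP were c1qc and P2RY12, and the 6 lower in IC were marco, ctss2.1 and rows named MFAP4. One of these, MFAP4 (ENSDARG00000088745), had 34.2 CPM in Dx-IONP, 5.07 CPM in IC and 16.3 CPM in control. Acinar pancreas markers, 6 of 6 lower in both libraries, summed to 8.15 CPM in Dx-IONP, 18.3 CPM in IC and 153 CPM in control, with CELA1 and amy2a at 0 in Dx-IONP and CELA1 at 0 in IC. Of the 6, amy2a and the CPA1 row ENSDARG00000030915 passed the filter through control alone. Erythrocyte markers gave 2 genes that passed, both called higher in Dx-IONP, and the embryonic globin hbbe3 alone had 728 CPM in Dx-IONP, 1.1996 CPM in IC and 3.49 CPM in control. The part of these tissues in the plasma protein values was not tested.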

How the data were processed

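RNA was sequenced from 1 pool of larvae per condition, and the 4 lanes of each library were summed after comparison, since they are repeat runs of 1 library. The authors deposited estimated counts for each gene in each lane, already whole numbers and not normalized. The submitters' processing notes name the build GRCz11 and the tools Salmon 1.6.0, FastQC, DESeq2 1.34.0 and R 4.1.2. The summing of transcripts to genes and the use of strand are not given in the sources used here. By design, Salmon divides reads among similar transcripts by likelihood. The estimated counts were used with no further rounding.

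TMM factors came from edgeR 4.0.16 and alternative size factors from DESeq2 1.42.0, in R 4.3.3; the rest used Python 3.11.15, numpy 2.4.6, pandas 2.3.3 and scipy 1.17.1. The filter kept genes that reached 1 CPM in any library. Log2 folds used a prior count of 2. Intervals are exact Clopper-Pearson 95% intervals of the conditional binomial. The steps were checked on simulated counts. No condition was tested against another, since each had 1 library. No molecular identifiers are recorded and reads are not independent molecules, so intervals and floors cover counting error only.

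Symbols came from a name table, which paired 19182 of 19983 identifiers; 13 members share a symbol with another row. Many symbols are in the human style, and some list names were matched without the paralog letter. The members, the lists and the naming rule were chosen with earlier results of these data known. Named were fixed readouts (39 of 51 found), the members with the largest and smallest folds per group at 10 CPM or more, and those with most reads per group; other members are printed to account for every gene, and genes of the other lists are examples chosen after their values were seen. Lane totals were 13569110 to 14063966 reads for Dx-IONP, 11847840 to 12239616 for IC and 20606371 to 21329490 for control. Values of some genes in the other lists are not reported here.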

Additional observations from a re-analysis of the deposited data

Results flagged for a closer look

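In groups of 4 lanes, a single lane stood apart from the others of its library for 5 members, by a criterion that chance meets in about 1 of 20 groups; 156 groups were examined, so 7.8 were to be expected. The lanes are repeat runs of 1 library, so this concerns the sequencing and not the larvae.

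For apoc2 in IC, lane 4 had 75.5 CPM, against 66.8 to 67.7 CPM in the other lanes. The IC value of serpinf2b in lane 4 was 31.5 CPM, against 28.5 to 29.0 CPM. In Dx-IONP, c8b had 24.0 CPM in lane 4, against 34.1 to 35.8 CPM, and this lane decided whether its fold over control passed the 2-fold criterion. In control, apoeb had 1863 CPM in lane 2, against 1838 to 1842 CPM, and serping1 had 7.45 CPM in lane 3, against 6.27 to 6.46 CPM.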

How the results depend on the processing

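No called fold and no summary value changed sign under the alternatives run, while 6 folds that were not called did, all 0.27 or less in size. Of 198 checks of a summary value under an alternative, 169 stayed within a set tolerance. For counts the tolerance was a factor of 1.5, and for medians the median half-width of the genes' counting intervals. The change from 21 to 30 members lower in Dx-IONP over control with total reads was thus within it. For the 54 named members, 33 of 1449 checks of a fold crossed the 2-fold criterion. Of these 33, 15 came with scaling to total reads, 4 with DESeq2 size factors and 14 without a lane. The 162 fold checks with no filter and the 153 at 10 CPM or more could not change a fold, since the filter does not enter it. In Dx-IONP over control, total reads made apoa1b (-1.15), the VTN row ENSDARG00000055388 (-1.08), F10 (-1.29), the F7 row ENSDARG00000034862 (-1.17), cfh (-1.21), cfhl2 (-1.11) and SERPINC1 (-1.002) lower, and DESeq2 size factors left c8b at -0.998. Scaled to total reads, the median log2 fold in Dx-IONP over control was -0.85 for all members, -0.64 for apolipoproteins, -0.96 for complement, 0.087 for clotting factors and -1.47 for inhibitors; in IC over control it was -2.02 for apolipoproteins; and in Dx-IONP over IC it was 0.50 for all members, 1.96 for apolipoproteins, 0.54 for complement, 0.74 for clotting factors and 0.0047 for inhibitors. That scaling moved the median of all genes to -0.35, -0.08 and -0.27 in the same comparisons. With no filter, the Dx-IONP over control medians were -0.36 for apolipoproteins, -0.67 for complement and 0.32 for clotting factors, those of IC over control -1.99 for apolipoproteins and -1.34 for complement, and those of Dx-IONP over IC 0.67 for all members, 0.71 for complement and 0.66 for clotting factors. At 10 CPM or more, complement stood at -0.44 and inhibitors at -0.72 in Dx-IONP over control, 2 members were higher in IC over control, and in Dx-IONP over IC 7 were lower, with medians of 1.03 for all members, 1.26 for complement and 0.69 for inhibitors. With DESeq2 size factors apolipoproteins in IC stood at -1.92. Within the named protein groups alone, 2 were higher in IC over control and the Dx-IONP over IC median was 0.95. Apart from counts over fewer genes, the cause was not tested.

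Leaving out each lane gave 4 to 6 higher and 20 to 21 lower members in Dx-IONP over control, 4 to 5 and 46 to 49 in IC over control, and 31 to 34 and 11 to 12 in Dx-IONP over IC. No paired analysis was possible because the numbers are lanes of 1 library per condition, with no test between conditions. Depth limits the members with few reads (serpina7, c3a.2, serpinf2a, TTR, ahsg1), and pools of larvae, exposure and library preparation cannot be told apart with 1 library each.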

Other observations

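Of the 8 members that matched the rule by letters only, 6 passed the filter. In Dx-IONP over control 0 of them were called, and in IC 2 were called higher and 1 lower. The shares of all genes were 20.9% higher and 24.2% lower in Dx-IONP, and 14.2% higher and 15.1% lower in IC. C7H4orf54 had 0.948 CPM in Dx-IONP, 2.30 CPM in IC and 0.827 CPM in control, so it passed the filter through IC alone. Of the rows named C7H19orf12, ENSDARG00000102929 had 4.53 CPM in Dx-IONP, 8.89 CPM in IC and 3.27 CPM in control, and ENSDARG00000058857 had 13.5 CPM in Dx-IONP, 39.96 CPM in IC and 24.5 CPM in control. C7H16orf87 was the row called lower in IC, with 42.5 CPM in Dx-IONP, 14.7 CPM in IC and 42.0 CPM in control. The editing enzyme relative APOBEC2 (ENSDARG00000018881) had 18.3 CPM in Dx-IONP, 26.3 CPM in IC and 15.97 CPM in control. Without these 6 rows the counts were 21 lower and 5 higher of 66 in Dx-IONP over control, and 47 lower and 2 higher of 66 in IC over control.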
